A study of Mus musculus with 16 samples.

Results

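The chromatin remodelling and histone modifying genes described here were taken by gene symbol: every array spot that the platform annotates with a single symbol starting with Smarc, Hdac, Kdm, Kmt, Chd, Arid, Brd, Ezh, Setd, Kat, Dnmt, Cbx or one of the names Ing1 to Ing5. This gave 207 of 28704 spots and 91 genes, of which 82 had enough values to be tested among 14292 transcripts. The other 9, Arid3a, Arid4b, Brd8, Cbx2, Dnmt1, Dnmt3l, Ing5, Kdm4b and Setd2, had too few values in at least 1 group. A further 15 spots that list a matching symbol beside other symbols were left out. No measured value entered the choice of the genes. They were followed in brains of neonatal mice of 4 genotypes with 4 arrays each. Mutants were Cx43 null, heterozygous for Cx43 (Cx43 heterozygous below) or Cx32 null, and are set against wild type. For Cx32 null brain the age stands in the sample descriptions and not in the titles. Cx43 null mice lack connexin 43, encoded by Gja1, the main gap junction protein of astrocytes, Cx43 heterozygous mice carry a single intact copy of it, and Cx32 null mice lack connexin 32, a gap junction protein of oligodendrocytes. The labels give the strain as C57BL/6j for wild type and as C57BL for the mutant lines, and state neither the construct of an allele, nor sex, nor how many animals gave a sample. Errors and p-values therefore measure the spread between these samples, which may be technical. The strain label also differs between wild type and each mutant line. In comparisons with wild type, genotype and strain label therefore cannot be told apart. Brain RNA, labelled with Cy3 per the labels, was hybridised on each cDNA array beside a Cy5 reference pooled from adult tissues, brain among them, and values are read as log2 ratios of brain to that pool. Wild-type replicates 3 and 4 have only the dye of the reference in their labels.

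DNA in the nucleus is wound on histones, and the genes of this set encode the machinery that moves, marks and reads these particles. SWI/SNF, ISWI and CHD proteins are ATP-driven motors that slide or evict nucleosomes. KAT and HDAC proteins add and remove acetyl groups, KMT, SETD and EZH proteins add methyl groups and KDM proteins remove them, and bromodomain, chromobox and ING proteins bind the marks. In the developing brain the SWI/SNF complex exchanges subunits as progenitors become neurons, and mutations in many of these genes cause neurodevelopmental disorders in humans.

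Gja1, the gene altered in the Cx43 lines, serves as a check of the labels. The log2 ratio of Gja1 averaged -1.83 ± 0.96 in Cx43 null, -1.36 ± 0.34 in Cx43 heterozygous and 0.11 ± 0.14 in Cx32 null brain, against 1.56 ± 0.63 in wild type (SD, n = 4 each). All arrays of the lines labelled for it lay below all wild-type arrays, but Gja1 does not separate the Cx43 groups, since Cx43 null arrays ran from -2.92 to -0.60 and Cx43 heterozygous arrays from -1.86 to -1.09. The gene also fell in Cx32 null brain (log2 change -1.46 ± 0.37 SE, adjusted p = 0.00986, limma). Gjb1, the gene of connexin 32, was not analysed here. Brain over pool is the likely direction of the ratios, since a list of neuronal genes had a higher median than a list of genes of the other pooled tissues on 16 of 16 arrays. Wild-type replicate 1 stands apart: over the chromatin genes it correlated with the other 15 arrays at r = 0.30 to 0.73, and the other 105 pairs of arrays at 0.48 to 0.95. Cx43 null replicate 1 lay near the wild-type arrays. Over the same genes it correlated at 0.67, 0.90, 0.84 and 0.78 with wild-type replicates 1 to 4. With Cx43 null replicates 2, 3 and 4 the values were 0.83, 0.70 and 0.68. In 30 of 416 consecutive blocks of 69 spots at least 1 array did not follow the others, and 17 of the 207 spots lay in them. Calls lost without wild-type replicate 1 or those spots are named with the gene concerned. A fit that leaves out 1 array requires all 3 remaining values of that group. Spots that lack one of them then leave the gene average too, so such fits do not show the effect of the array alone.

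The promoters of 6 genes that carry the largest or most even changes below are shown first, the 250 bases upstream of the RefSeq transcription start in build GRCm38.p6, 5′ to 3′ on the strand of the gene. They are Setd3 at chr12:108179285-108179534 (minus strand), Kat7 at chr11:95310247-95310496 (minus), Kdm1a at chr4:136602724-136602973 (minus), Kat6b at chr14:21499520-21499769 (plus), Smarcc2 at chr10:128458986-128459235 (plus) and Smarcal1 at chr1:72583001-72583250 (plus). The first 3 genes fell and the last 3 rose in both Cx43 heterozygous and Cx32 null brain. Capitals mark GC boxes, spelled GGGCGG or CCGCCC, and CCAAT boxes, spelled CCAAT or ATTGG, each searched on both strands.
Setd3: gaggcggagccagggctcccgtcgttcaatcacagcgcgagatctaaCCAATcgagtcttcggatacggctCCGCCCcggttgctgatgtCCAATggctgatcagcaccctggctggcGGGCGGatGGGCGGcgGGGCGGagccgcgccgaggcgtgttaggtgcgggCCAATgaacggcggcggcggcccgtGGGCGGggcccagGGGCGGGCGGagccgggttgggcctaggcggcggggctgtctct
Kat7: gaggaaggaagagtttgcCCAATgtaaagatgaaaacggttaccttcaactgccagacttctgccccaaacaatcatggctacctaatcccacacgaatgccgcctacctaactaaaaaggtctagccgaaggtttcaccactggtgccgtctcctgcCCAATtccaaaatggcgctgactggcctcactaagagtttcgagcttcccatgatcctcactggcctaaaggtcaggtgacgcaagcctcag
Kdm1a: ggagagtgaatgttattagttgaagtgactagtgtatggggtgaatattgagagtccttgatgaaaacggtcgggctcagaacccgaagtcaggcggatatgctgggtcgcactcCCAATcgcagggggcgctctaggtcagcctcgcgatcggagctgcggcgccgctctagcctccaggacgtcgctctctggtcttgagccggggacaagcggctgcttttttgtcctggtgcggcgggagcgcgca
Kat6b: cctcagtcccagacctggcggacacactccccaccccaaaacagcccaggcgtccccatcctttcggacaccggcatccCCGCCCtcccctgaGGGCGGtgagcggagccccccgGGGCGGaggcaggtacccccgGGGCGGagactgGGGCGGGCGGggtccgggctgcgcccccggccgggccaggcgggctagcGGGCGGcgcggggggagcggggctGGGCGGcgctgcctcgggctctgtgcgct
Smarcc2: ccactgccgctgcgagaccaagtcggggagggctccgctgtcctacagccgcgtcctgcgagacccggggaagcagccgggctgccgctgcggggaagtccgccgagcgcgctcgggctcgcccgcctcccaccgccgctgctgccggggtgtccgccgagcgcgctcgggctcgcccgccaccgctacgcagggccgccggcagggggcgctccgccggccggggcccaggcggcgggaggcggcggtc
Smarcal1: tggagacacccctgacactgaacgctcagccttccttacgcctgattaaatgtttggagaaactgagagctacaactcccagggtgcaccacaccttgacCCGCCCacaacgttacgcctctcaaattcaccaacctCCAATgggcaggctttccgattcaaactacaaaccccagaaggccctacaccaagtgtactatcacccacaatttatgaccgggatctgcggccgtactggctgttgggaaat
Setd3 and Kat6b have 7 and 8 GC boxes in this window, overlapping matches counted, Smarcal1 has 1, and Smarcc2, Kdm1a and Kat7 have none. Smarcc2 holds 40 CpG pairs in the 250 bases and Kat7 holds 8. Of the 91 chromatin genes, 72 have an entry in the RefSeq table. A GC box was in 65.3% of these promoters, against 32.9% of the 27025 promoters of all genes, and their median number of CpG pairs was 19.5 against 6. A CCAAT box was in 41.7%, against 34.5% of all genes. Among the genes that passed in Cx43 heterozygous brain, a CCAAT box was in 2 of 9 promoters of genes that were higher and in 9 of 14 of genes that were lower, a description that was not tested.

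In Cx43 heterozygous and Cx32 null brain about 1 in 3 chromatin genes passed against wild type, in both directions, whereas few passed in Cx43 null brain. In Cx43 null brain 4 of 82 genes passed, 4.88% against 10.8% of all transcripts: Smarcal1 rose, and Setd3, Chd1 and Smarcb1 fell. In Cx43 heterozygous brain 28 passed, 34.1% against 31.0% of all transcripts, with 11 higher and 17 lower. In Cx32 null brain 26 passed, 31.7% against 27.3%, with 13 higher and 13 lower. By direction, 4.37%, 13.5% and 13.1% of all transcripts were higher in Cx43 null, Cx43 heterozygous and Cx32 null brain, and 6.43%, 17.5% and 14.3% were lower. The counts of chromatin genes therefore lie near what any transcript showed on these arrays in the Cx43 heterozygous and Cx32 null lines. The low count in Cx43 null brain depends on single arrays. Without its replicate 1, 1034 of 14111 transcripts were higher and 1434 lower, against 624 and 919 of 14292 with all arrays. Passing means a Benjamini-Hochberg adjusted p under 0.05 in limma, adjusted over all transcripts. All 3 comparisons use the same 4 wild-type arrays, so that a wild-type value that is high or low by chance moves all of them.

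The chromatin genes had median changes near 0 in each line. Their median log2 change was 0.02, -0.04 and 0.04 in Cx43 null, Cx43 heterozygous and Cx32 null brain, beside 0.01, -0.02 and -0.03 over all transcripts. The median size of a change, sign aside, was 0.34, 0.41 and 0.41, beside 0.34, 0.43 and 0.41 over all transcripts. The values of the mutant and the wild-type arrays did not overlap for 8 genes in Cx43 null brain (9.76%, against 12.9% of all transcripts), for 28 in Cx43 heterozygous brain (34.1% against 31.1%) and for 28 in Cx32 null brain (34.1% against 27.8%). The SD between the 4 arrays of a group had a median over the chromatin genes of 0.27 in Cx43 null, 0.19 in Cx43 heterozygous and 0.17 in Cx32 null brain, against 0.32 in wild type. Over all transcripts it was 0.27, 0.20 and 0.21, against 0.39 in wild type. These are brain extracts, in which fewer cells of a type and less RNA per cell cannot be told apart. With the arrays left uncentred, 16 genes were higher and 7 lower in Cx43 heterozygous brain and 13 higher and 6 lower in Cx32 null brain, and quantile scaling gave 11 and 11 and 16 and 9. Over all 14292 transcripts uncentred arrays gave 3026 and 1802 in Cx43 heterozygous and 2215 and 1655 in Cx32 null brain. Quantile scaling gave 1868 and 2043 and 1833 and 1617. The split between higher and lower genes thus moves with the scaling, and the median change of all transcripts in Cx43 heterozygous brain was 0.15 with uncentred arrays, beside -0.02 with centred ones.

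**Figure D1:**
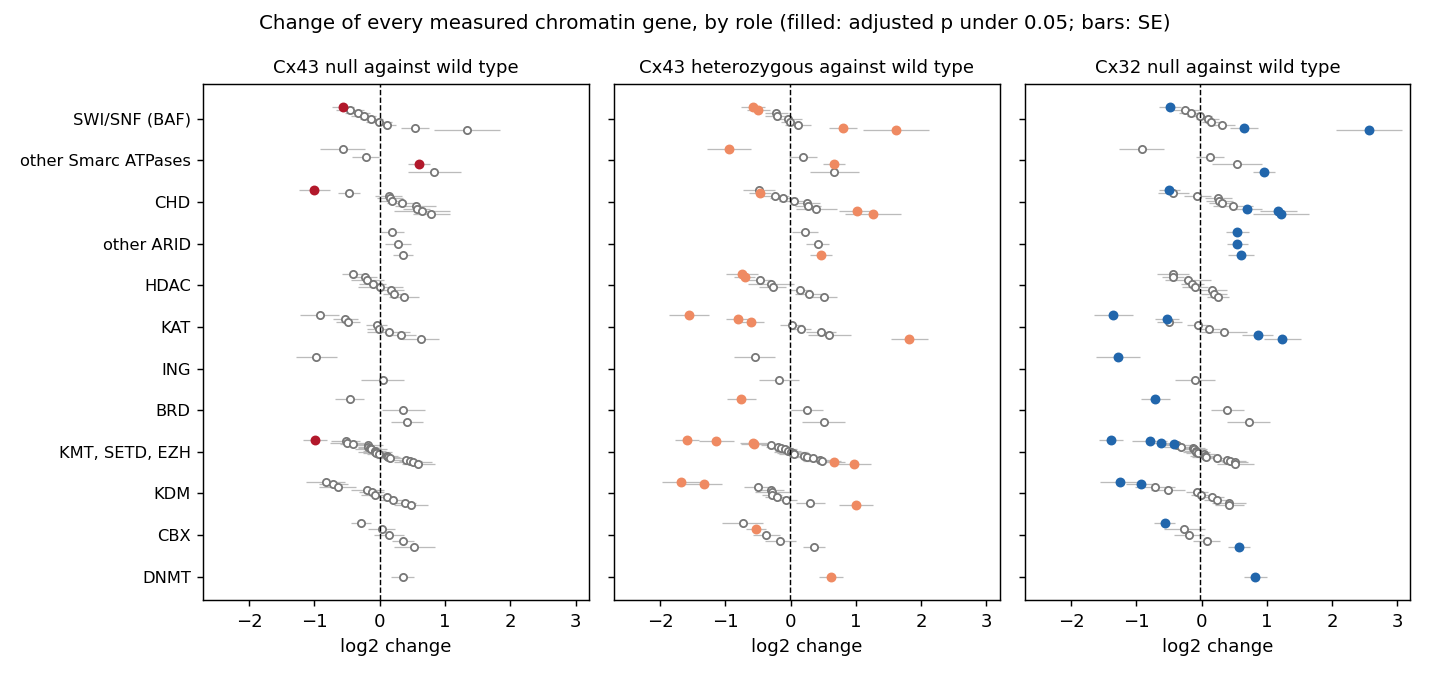
Log2 change of each of the 82 measured chromatin genes against wild type (x axis), in rows by role, for Cx43 null, Cx43 heterozygous and Cx32 null brain; points are limma estimates, bars standard errors, and filled points have an adjusted p under 0.05. Filled points number 4, 28 and 26, and every role with 3 or more genes has points on both sides of 0 in at least 1 line, except the ARID group, whose points lie above 0.

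Among the SWI/SNF subunits, Smarcc2 had the largest rise of all 82 genes in Cx32 null brain. It encodes BAF170, a scaffold protein of the complex. Its log2 ratio was 0.21, 0.50, 0.86 and 2.61 in Cx43 null brain, 2.02, -0.09, 1.58 and 1.79 in Cx43 heterozygous brain and 1.23, 2.43, 2.16 and 3.27 in Cx32 null brain, against -0.64, -0.14, -0.35 and -0.03 in wild type. All Cx43 null and Cx32 null arrays lay above all wild-type arrays, and 1 Cx43 heterozygous array, replicate 2, lay among them. Smarcc2 rose 5.91-fold in Cx32 null brain (log2 change 2.56 ± 0.51 SE, adjusted p = 0.00255). The rise in Cx43 heterozygous brain was 3.07-fold (1.62 ± 0.51, adjusted p = 0.023). It passed in 4 of 8 fits that leave out 1 array, and was lost without wild-type replicate 1 (1.501, adjusted p = 0.0524, limma) or Cx43 heterozygous replicates 1, 3 or 4, with an adjusted p up to 0.0687. Its change of 1.34 ± 0.51 in Cx43 null brain did not pass (adjusted p = 0.0881, limma), being 0.82 without replicate 4 and 1.62 without replicate 1 of that line. The gene was read by 1 spot.

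Smarcb1 and Smarca4 moved in opposite directions. Smarcb1, a core subunit lost in human rhabdoid tumours, had ratios of 0.93, 1.13, 0.75 and 1.10 in Cx43 null brain, 0.90, 1.25, 0.98 and 1.05 in Cx43 heterozygous brain and 1.03, 1.24, 0.74 and 1.22 in Cx32 null brain, against 1.71, 1.49, 1.71 and 1.25 in wild type. All mutant arrays lay below all wild-type arrays, although Cx43 heterozygous replicate 2 and wild-type replicate 4 both read 1.25. Smarcb1 changed by -0.56 ± 0.17 in Cx43 null, -0.49 ± 0.17 in Cx43 heterozygous and -0.48 ± 0.17 in Cx32 null brain (adjusted p = 0.0456, 0.0361 and 0.0433, limma), close to the threshold each time, and it passed in 1, 3 and 5 of 8 fits that leave out 1 array. Without wild-type replicate 1 the Cx43 null change was -0.46 (adjusted p = 0.122, limma). Smarca4, the BRG1 ATPase that drives the complex, rose 1.74-fold in Cx43 heterozygous brain (0.80 ± 0.21, adjusted p = 0.00952). The Smarca4 rise in Cx32 null brain was 1.57-fold (0.65 ± 0.21, adjusted p = 0.0308). Its ratios were 1.83, 1.18, 1.44 and 1.66 in Cx43 heterozygous brain and 1.34, 1.59, 1.18 and 1.40 in Cx32 null brain, against 0.10, 1.10, 0.78 and 0.93 in wild type, where replicate 1 is the low array. Without that array the Smarca4 change in Cx32 null brain was 0.44 and did not pass. Smarcd2, an accessory subunit, fell in Cx43 heterozygous brain (-0.58 ± 0.18, adjusted p = 0.0256), on 2 spots that point in opposite directions.

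The remaining SWI/SNF subunits did not pass in any line. Smarca2, the alternative ATPase BRM, changed by 0.11, -0.002 and 0.15 in Cx43 null, Cx43 heterozygous and Cx32 null brain, each ± 0.14. For Smarcd1 the changes were -0.45, -0.04 and -0.26, and for Smarce1 -0.34, -0.21 and -0.03. Arid1a, the subunit that defines the BAF form of the complex, changed by -0.13, -0.22 and 0.09. Over the 9 measured subunits the counts were 0 higher and 1 lower in Cx43 null, 2 and 2 in Cx43 heterozygous and 2 and 1 in Cx32 null brain, with median changes of -0.13, -0.04 and 0.09. The shares passing were 11.1%, 44.4% and 33.3%, against 10.8%, 31.0% and 27.3% of all transcripts.

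Of the other Smarc proteins, Smarcal1 was the only chromatin gene higher in all 3 lines by this test. It encodes an enzyme that rewinds DNA at stalled replication forks. Its ratios were -0.31, 0.11, 0.31 and 0.05 in Cx43 null brain, 0.02, 0.12, 0.11 and 0.16 in Cx43 heterozygous brain and 0.22, 0.37, 0.45 and 0.55 in Cx32 null brain, against -0.74, -0.54, -0.24 and -0.71 in wild type. Cx43 heterozygous and Cx32 null arrays all lay above the wild-type arrays, and Cx43 null replicate 1 lay within their range. Smarcal1 rose 1.51-fold in Cx43 null (0.60 ± 0.17, adjusted p = 0.0358), 1.58-fold in Cx43 heterozygous (0.66 ± 0.17, adjusted p = 0.00796) and, in Cx32 null brain, 1.94-fold (0.95 ± 0.17, adjusted p = 0.00148, limma). Of its 2 spots 1 lies in a block that is out of step on some arrays. Without such blocks the Cx43 null change was 0.61 (adjusted p = 0.0533) and when wild-type replicate 1 was left out 0.58 (adjusted p = 0.0971), and neither passed. Of 8 fits that leave out 1 array, 2 kept this call. Smarca5, the ISWI motor SNF2H, fell in Cx43 heterozygous brain (-0.94 ± 0.34, adjusted p = 0.0431), but its highest wild-type value of 2.64 in replicate 1 stands beside 0.63, 0.51 and 0.91 in the other 3, and without that array the change was -0.45 and did not pass. Smarca1, the ISWI motor SNF2L, changed by 0.84, 0.67 and 0.54 and Smarcad1 by -0.22, 0.19 and 0.13 in Cx43 null, Cx43 heterozygous and Cx32 null brain, and neither passed.

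Chd7 and Chd5 were the CHD remodellers with the largest rises. Chd7, mutated in human CHARGE syndrome, had ratios of 0.28, 0.48, 0.96 and 0.80 in Cx43 heterozygous brain and 0.11, 0.94, 1.26 and 0.83 in Cx32 null brain, against -1.05, -0.35, -0.10 and -0.05 in wild type. Cx43 null brain had -0.26, 0.59, 0.80 and 0.48. All Cx43 heterozygous and Cx32 null arrays lay above all wild-type arrays, and Cx43 null replicate 1 lay among the wild-type arrays. Chd7 rose 2.03-fold in Cx43 heterozygous (1.02 ± 0.28, adjusted p = 0.0123) and, in Cx32 null brain, 2.25-fold (1.17 ± 0.28, adjusted p = 0.00723). Its change in Cx43 null brain, 0.79 ± 0.28, did not pass (adjusted p = 0.0726, limma). Both Chd7 spots gave 1.08 to 1.16 in the lines where it passed. Chd5, the neuronal motor of the NuRD complex, rose 2.40-fold in Cx43 heterozygous (1.27 ± 0.43, adjusted p = 0.0322) and, in Cx32 null brain, 2.32-fold (1.22 ± 0.43, adjusted p = 0.0422). Its wild-type arrays spread from -0.97 to 1.39 and overlapped those of both lines, and it passed in 2 of 8 fits that leave out 1 array in either line. Without wild-type replicate 1 the changes were 0.87 and 0.82 and did not pass.

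Chd1 fell in Cx43 null brain. The human protein is a motor that binds methylated histone H3 at active promoters. Its ratios were 0.20, 0.34, -0.39 and 0.53 in Cx43 null brain, against 1.67, 1.00, 0.64 and 1.36 in wild type, and did not overlap. The fall was 2.00-fold (-1.002 ± 0.24, adjusted p = 0.0203), and it passed in 5 of 8 fits that leave out 1 array, all 4 spots pointing down. In Cx43 heterozygous and Cx32 null brain Chd1 changed by -0.48 and -0.43, and neither passed. Chd3, another NuRD motor, rose in Cx32 null brain (0.69 ± 0.23, adjusted p = 0.0345), but not without wild-type replicate 1 (0.59, adjusted p = 0.078), and passed in 3 of 8 fits that leave out 1 array. Chd8, a motor linked to autism in humans, fell in Cx43 heterozygous (-0.47 ± 0.16, adjusted p = 0.0377) and Cx32 null brain (-0.49 ± 0.16, adjusted p = 0.0345). The spots of both genes disagree in sign, as described below. Over the 10 CHD genes the counts were 0 higher and 1 lower, 2 and 1, and 3 and 1 in Cx43 null, Cx43 heterozygous and Cx32 null brain. In either direction 1, 3 and 4 of the 10 passed, beside 10.8%, 31.0% and 27.3% of all transcripts.

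**Figure D2:**
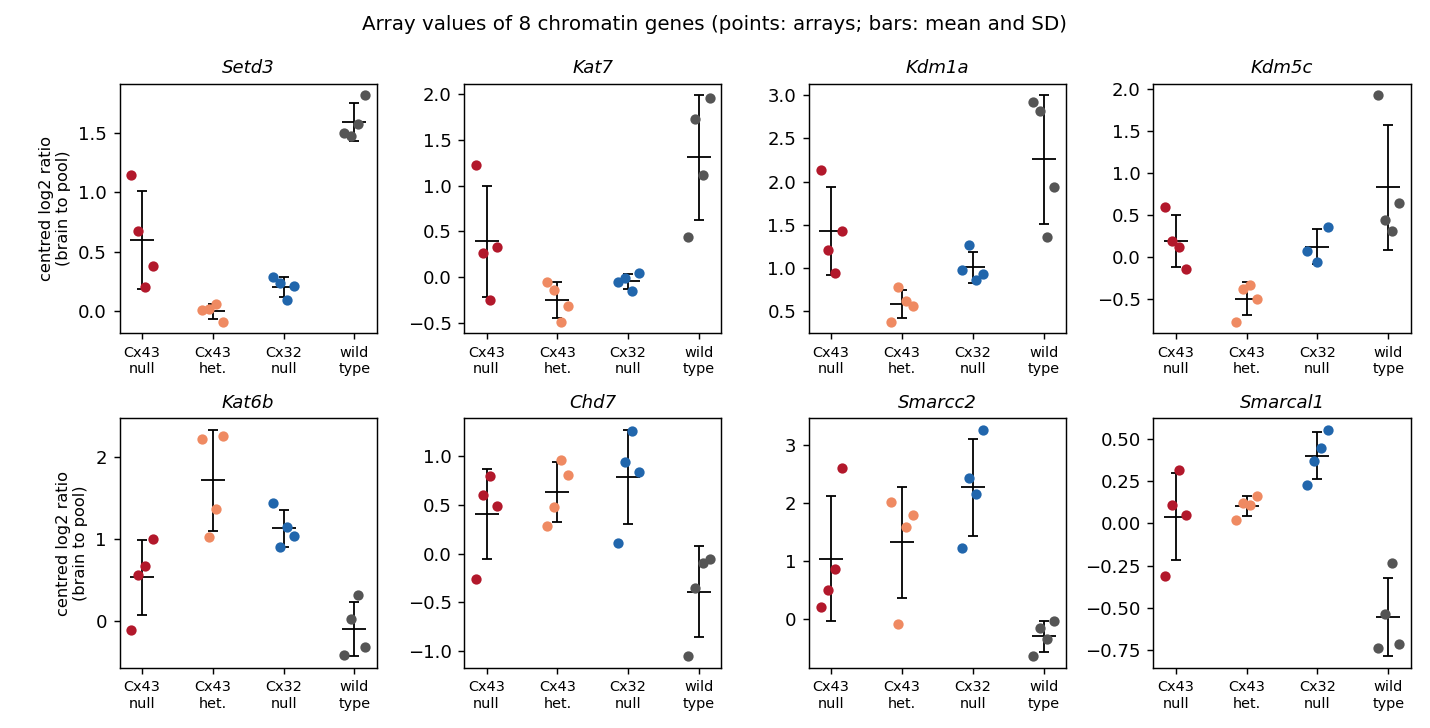
Array values of Setd3, Kat7, Kdm1a, Kdm5c, Kat6b, Chd7, Smarcc2 and Smarcal1 as centred log2 ratios of brain to the pool (y axis) in Cx43 null, Cx43 heterozygous, Cx32 null and wild-type brain; points are arrays, and bars give the mean and SD of 4 arrays, or of 3 for Kdm5c in Cx32 null brain. Setd3 lies between -0.09 and 0.06 in Cx43 heterozygous brain and between 1.47 and 1.82 in wild type, and Cx43 null arrays lie between these for Setd3, Kat7, Kdm1a and Kat6b on average.

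The histone acetyltransferases held both the largest rise and one of the largest falls of Cx43 heterozygous brain. Kat6b, a MYST-family enzyme mutated in human developmental syndromes, had ratios of 2.22, 1.02, 1.37 and 2.26 in Cx43 heterozygous brain and 1.44, 0.90, 1.15 and 1.04 in Cx32 null brain, against -0.42, 0.02, 0.32 and -0.32 in wild type. In Cx43 null brain they were -0.11, 0.56, 0.67 and 1.00, of which the lowest lies within the wild-type range. Kat6b rose 3.53-fold in Cx43 heterozygous (1.82 ± 0.28, adjusted p = 0.00039) and, in Cx32 null brain, 2.35-fold (1.23 ± 0.28, adjusted p = 0.00576, limma), in all alternatives tried. Its change of 0.63 ± 0.28 in Cx43 null brain did not pass (adjusted p = 0.14).

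Kat7 encodes HBO1, an acetyltransferase that takes part in the licensing of replication origins. Its ratios were -0.05, -0.14, -0.48 and -0.32 in Cx43 heterozygous brain and -0.06, -0.01, -0.15 and 0.04 in Cx32 null brain, against 0.44, 1.73, 1.11 and 1.96 in wild type. The wild-type arrays lay above all arrays of these lines, though they spread widely. Kat7 fell 2.94-fold in Cx43 heterozygous (-1.56 ± 0.30, adjusted p = 0.00157) and, in Cx32 null brain, 2.55-fold (-1.35 ± 0.30, adjusted p = 0.00484, limma). In Cx43 null brain, with ratios of 1.22, 0.27, -0.24 and 0.33, the change was -0.92 ± 0.30 and did not pass (adjusted p = 0.0559). Kat6b and Kat7 were each read by 1 measured spot.

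Kat8, which acetylates histone H4 and takes part in dosage compensation in flies, fell 1.74-fold in Cx43 heterozygous brain (-0.80 ± 0.18, adjusted p = 0.00411), where all arrays lay below the wild-type arrays. Its fall in Cx32 null brain (-0.53 ± 0.18, adjusted p = 0.0403) passed in 1 of 8 fits that leave out 1 array, and without wild-type replicate 1 its adjusted p was 0.115. Kat6a rose in Cx32 null brain (0.86 ± 0.23, adjusted p = 0.0135), but 3 of its 4 spots lie in blocks out of step, and without them the change was 0.37 and did not pass. Kat2a, the SAGA acetyltransferase, fell in Cx43 heterozygous brain (-0.60 ± 0.19, adjusted p = 0.0261, limma), and did not pass without wild-type replicate 1 (-0.53, adjusted p = 0.0551) or in 3 other fits of 8. Ing3, a subunit of the NuA4 acetyltransferase complex, had ratios of -1.14, -0.04 and -0.40 in Cx32 null brain, replicate 1 without a value, against 0.97, 0.89, 0.27 and 0.91 in wild type. It fell 2.44-fold there (-1.29 ± 0.34, n = 3 and 4, adjusted p = 0.0117, limma). Its change of -0.97 ± 0.31 in Cx43 null brain, with no overlap of the arrays, did not pass (adjusted p = 0.0542).

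Brd2, a BET protein that reads acetylated histones, fell in Cx43 heterozygous (-0.76 ± 0.23, adjusted p = 0.0179) and Cx32 null brain (-0.71 ± 0.23, adjusted p = 0.0283). Its wild-type ratios were 0.56, 1.62, 1.57 and 1.59, so that replicate 1 lay among the mutant arrays and the other 3 above them. Of its 2 spots 1 lies in a block out of step, and without it both falls still passed. Both were lost with uncentred arrays, quantile scaling or cyclic loess scaling, in fits of only the groups compared, and without wild-type replicate 2. Among the deacetylases, 2 of 8 fell in Cx43 heterozygous brain and none passed in the other lines. That is 25.0%, against 17.5% of all transcripts lower in this line. Hdac3, the catalytic subunit of the NCoR corepressor, had ratios of 0.91, 0.94, 0.88 and 0.88 in Cx43 heterozygous brain, against 1.92, 1.44 and 1.46 in wild type, whose replicate 4 has no value. It fell 1.63-fold (-0.71 ± 0.16, adjusted p = 0.00514, limma). This call was lost with quantile scaling and with cyclic loess scaling. Over all alternatives the Hdac3 change ran from -0.72 to -0.34, with an adjusted p up to 0.0875 in limma. Hdac1, shared by the Sin3 and NuRD complexes, fell 1.67-fold (-0.74 ± 0.25, adjusted p = 0.0312) and passed in 4 of 8 fits that leave out 1 array. At an unadjusted p under 0.05, 23, 35 and 33 of the 82 genes would count in Cx43 null, Cx43 heterozygous and Cx32 null brain, 28.1%, 42.7% and 40.2% against 31.0%, 43.1% and 40.9% of all transcripts.

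Setd3 was the chromatin gene with the lowest adjusted p in each line. Its protein carries the SET domain of histone methyltransferases, and its best-known substrate is a histidine of actin. Its ratios were 1.14, 0.67, 0.20 and 0.38 in Cx43 null brain, 0.01, 0.02, 0.06 and -0.09 in Cx43 heterozygous brain and 0.29, 0.23, 0.09 and 0.21 in Cx32 null brain, against 1.502, 1.47, 1.57 and 1.82 in wild type. The 12 mutant arrays all lay below the 4 wild-type arrays. Setd3 fell 1.99-fold in Cx43 null (-0.99 ± 0.18, adjusted p = 0.00895), 3.01-fold in Cx43 heterozygous (-1.59 ± 0.18, adjusted p = 6.38e-05) and, in Cx32 null brain, 2.62-fold (-1.39 ± 0.18, adjusted p = 0.000285, limma). Both of its measured spots fell in each line. The calls in Cx43 heterozygous and Cx32 null brain held in every alternative tried, while that in Cx43 null brain was lost in 5 of 21: without wild-type replicate 2 (-0.69) or 3 (-0.60), when all 16 values are required (-0.72), on 1 spot alone and in a fit of only these 2 groups. A fit without an array can also drop a spot of the gene.

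Among the other methyltransferases, Kmt5a had the largest fall and Kmt2b the largest rise. Kmt5a, which places the first methyl group on histone H4 during the cell cycle, had ratios of -0.53, -0.89, -0.72 and -0.60 in Cx43 heterozygous brain, against 0.82, 0.71, 0.61 and -0.33 in wild type. The arrays did not overlap, but wild-type replicate 4 lay close to the mutant arrays. Kmt5a fell 2.20-fold in Cx43 heterozygous (-1.14 ± 0.26, adjusted p = 0.00468) and, in Cx32 null brain, 1.74-fold (-0.80 ± 0.26, adjusted p = 0.0342, limma), the fall in Cx32 null brain passing in 1 of 8 fits that leave out 1 array. Without wild-type replicate 1 the Kmt5a changes were -0.56 and -0.37, and neither passed (adjusted p = 0.0563 and 0.213, limma). That fit can also drop a spot of the gene, so these values do not show the effect of the array alone. Kmt5b, which adds further methyl groups, fell in Cx32 null brain (-0.42 ± 0.15, adjusted p = 0.0488), a call kept in 4 of 23 alternatives and lost without wild-type replicate 1 (adjusted p = 0.0657). Kmt5c, an enzyme of the same kind, changed by 0.40, 0.44 and 0.52 in Cx43 null, Cx43 heterozygous and Cx32 null brain and did not pass (adjusted p = 0.181, 0.102 and 0.0642, limma). Kmt2b, a trithorax-type enzyme for histone H3, had ratios of 0.27, 0.22, 0.38 and 0.34 in Cx43 heterozygous brain, against -1.54, -0.44, -0.63 and -0.08 in wild type. It rose 1.97-fold (0.98 ± 0.25, adjusted p = 0.00751), in all alternatives tried, and was read by 1 spot. Its relative Kmt2a rose 1.58-fold in the same line (0.66 ± 0.18, adjusted p = 0.00987), on spots that disagree. Setd1b, another histone H3 enzyme, fell in Cx43 heterozygous (-0.57 ± 0.20, adjusted p = 0.0418) and Cx32 null brain (-0.63 ± 0.22, n = 3 and 4, adjusted p = 0.0412, limma), and in neither without wild-type replicate 1 (-0.37 and -0.43). Ezh2, the catalytic subunit of Polycomb complex PRC2, fell in Cx43 heterozygous brain (-0.57 ± 0.21, adjusted p = 0.0422), with ratios of -1.42, -1.23, -1.59 and -1.23 against -0.84, -0.63, -0.66 and -1.06 in wild type. This call was kept in 1 of 8 fits that leave out 1 array, and was lost without wild-type replicate 1 (adjusted p = 0.0524). Of the 19 measured genes of the group, 0 were higher and 1 lower in Cx43 null, 2 and 4 in Cx43 heterozygous and 0 and 4 in Cx32 null brain. Passing shares were 5.26%, 31.6% and 21.1%, against 10.8%, 31.0% and 27.3% of all transcripts.

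Kdm1a was the demethylase with the largest fall. It encodes LSD1, which demethylates histone H3 in the CoREST corepressor and has a splice form specific to neurons. Its ratios were 0.38, 0.78, 0.62 and 0.56 in Cx43 heterozygous brain and 0.97, 1.26, 0.86 and 0.93 in Cx32 null brain, against 2.92, 2.82, 1.36 and 1.94 in wild type. In Cx43 null brain they were 2.14, 1.21, 0.94 and 1.43 and overlapped the wild-type values. Kdm1a fell 3.19-fold in Cx43 heterozygous (-1.68 ± 0.30, adjusted p = 0.000963) and, in Cx32 null brain, 2.38-fold (-1.25 ± 0.30, adjusted p = 0.00707, limma), in every alternative tried. Kdm1a was read by 1 spot, so no alternative holds a second clone. Its change of -0.83 ± 0.30 in Cx43 null brain did not pass (adjusted p = 0.0769).

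The demethylases Kdm5c and Kdm6a are encoded on the X chromosome and escape X inactivation. Kdm5c ratios were -0.77, -0.38, -0.34 and -0.50 in Cx43 heterozygous brain, against 1.93, 0.44, 0.31 and 0.64 in wild type, so that the groups did not overlap and wild-type replicate 1 was the highest. The fall was 2.51-fold (-1.33 ± 0.28, adjusted p = 0.00323) and passed in every alternative, with a change of -0.96 in the smallest. Kdm5c too was read by 1 spot. Kdm6a ratios were 0.58, 0.11, 0.34 and 0.52 in Cx32 null brain, against 1.81, 1.07, 0.92 and 1.47 in wild type. It fell 1.91-fold (-0.93 ± 0.22, adjusted p = 0.00726, limma), with all 4 spots pointing down, and did not pass without wild-type replicate 1 (-0.65, adjusted p = 0.0518). The Kdm6a change of -0.71 ± 0.22 in Cx43 null brain had an adjusted p of 0.0503. The sex of the animals is not stated, and Xist, the RNA of the inactive X, changed by 0.20, -0.02 and -0.05 in Cx43 null, Cx43 heterozygous and Cx32 null brain (adjusted p = 0.624, 0.965 and 0.88, limma). Kdm4a, which removes methyl groups from histone H3, rose 2.00-fold in Cx43 heterozygous brain (1.00 ± 0.26, adjusted p = 0.00828), with ratios of 1.22, 0.45, 0.80 and 0.89 against -0.87, -0.16, 0.27 and 0.11 in wild type. The groups did not overlap, and its 2 spots, 1 of them in a block out of step, gave nearly the same change. The group had 10 measured genes, of which 0, 1 and 0 were higher and 0, 2 and 2 lower in Cx43 null, Cx43 heterozygous and Cx32 null brain. In either direction 0, 3 and 2 of the 10 passed, beside 10.8%, 31.0% and 27.3% of all transcripts.

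Among readers and DNA methyltransferases, Dnmt3a and Cbx1 were higher and Cbx7 lower. Dnmt3a, which sets new methyl marks on DNA, had ratios of 0.77, 0.30, 0.56 and 0.64 in Cx43 heterozygous brain and 0.56, 1.06, 0.69 and 0.76 in Cx32 null brain, against -0.39, 0.02, -0.02 and 0.17 in wild type. No array of these lines overlapped the wild-type arrays. Dnmt3a rose 1.54-fold in Cx43 heterozygous (0.62 ± 0.18, adjusted p = 0.0158) and, in Cx32 null brain, 1.77-fold (0.82 ± 0.18, adjusted p = 0.00456, limma), though 1 of its 3 spots did not share the rise. Cbx1, a heterochromatin protein of the HP1 family, rose in Cx32 null brain (0.57 ± 0.17, adjusted p = 0.0203). Cbx7, a Polycomb reader of methylated histone H3, fell in Cx43 heterozygous (-0.53 ± 0.16, adjusted p = 0.0179) and Cx32 null brain (-0.57 ± 0.16, adjusted p = 0.0156). All 3 measured genes of the remaining ARID family rose in Cx32 null brain: Arid3b by 0.60 ± 0.20, Arid4a by 0.55 ± 0.18 and Arid5b by 0.55 ± 0.16 (adjusted p = 0.0325, 0.0297 and 0.0187, limma). Over all transcripts 13.1% were higher in Cx32 null brain. The Arid3b and Arid4a rises in this line each passed in 4 of 8 fits that leave out 1 array, and that of Arid5b in 8 of 8. Arid5b also rose in Cx43 heterozygous brain, by 0.46 ± 0.17 with n = 3 and 4 (adjusted p = 0.0483, limma). Without wild-type replicate 1 neither the Arid3b rise in Cx32 null brain (0.43, adjusted p = 0.0825) nor the Arid5b rise in Cx43 heterozygous brain (0.44, adjusted p = 0.062) passed. Arid3b has 1 of its 2 spots in a block out of step, and without it the change was 0.78 and passed.

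**Figure D3:**
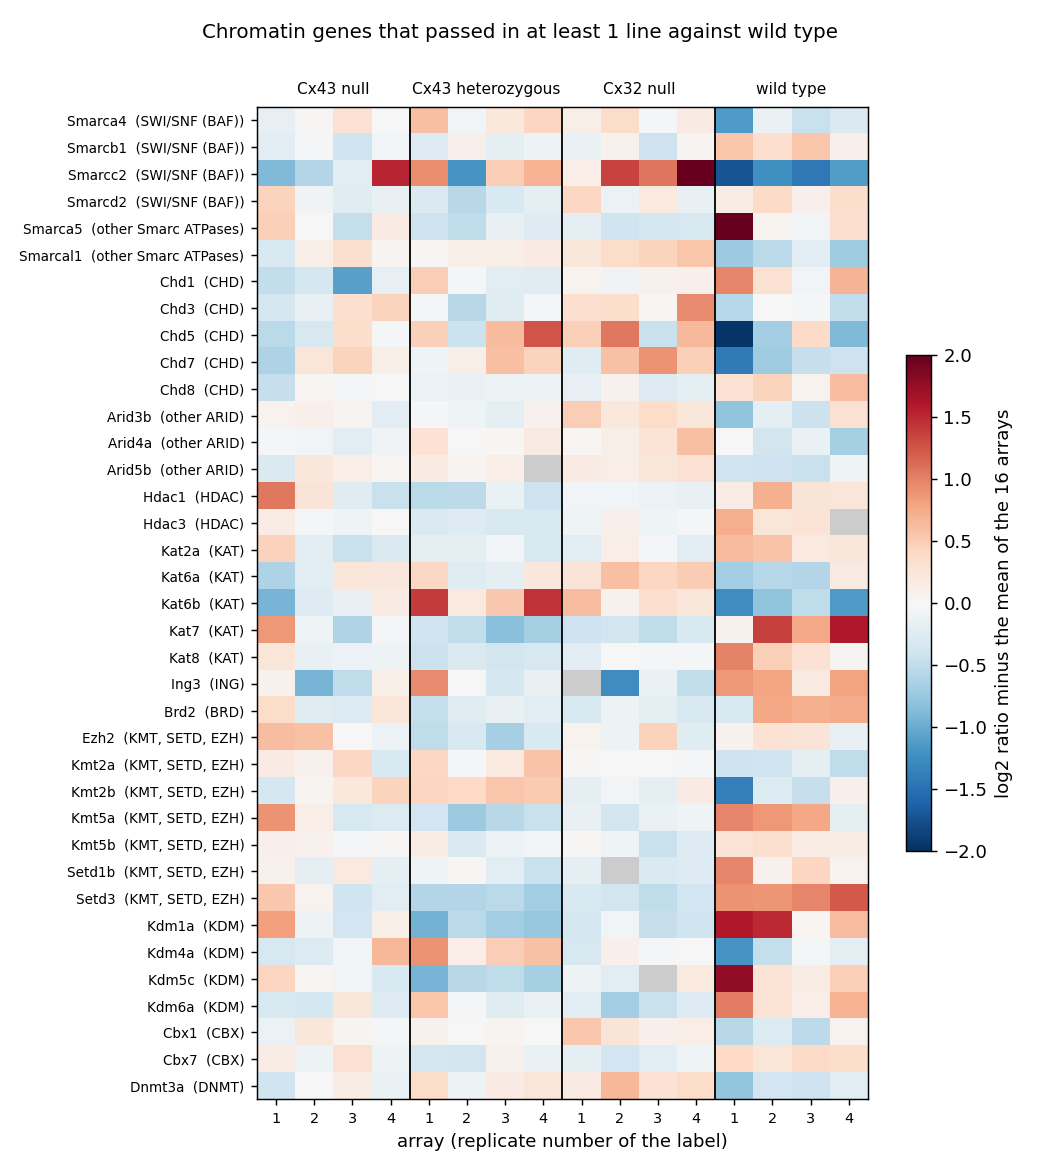
Log2 ratio of each chromatin gene that passed in at least 1 line (rows, by role) on each array (columns, replicates 1 to 4 of Cx43 null, Cx43 heterozygous, Cx32 null and wild-type brain), as the difference from the gene's mean over the arrays; red is higher, blue lower, grey no value, and the colours stop at -2 and 2. Wild-type replicate 1 has the strongest colours of the wild-type arrays in many rows, and Setd3 is red on all 4 wild-type arrays and blue or near 0 on the Cx43 heterozygous and Cx32 null arrays.

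Between the mutant lines themselves 1 of 82 genes differed. Kat6b was lower in Cx43 null than in Cx43 heterozygous brain, by -1.19 ± 0.28 on the log2 scale (adjusted p = 0.0472, limma), 1.22% of the chromatin genes against 1.46% of all transcripts (0.770% higher and 0.686% lower). The array values, given above, did not overlap. The call was lost without any 1 of Cx43 heterozygous replicates 1, 3 and 4 or Cx43 null replicates 1, 2 and 3, and the adjusted p ran from 0.0031 to 0.166 over all alternatives. Cbx6, a Polycomb reader, had ratios of 2.30, 1.78, 1.42 and 0.82 in Cx43 null brain, against 0.35, -0.05, 0.65 and 0.29 in Cx43 heterozygous brain, a difference of 1.27 ± 0.31 that did not pass (adjusted p = 0.0514). Setd3 differed by 0.60 between Cx43 null and Cx43 heterozygous brain (95% interval 0.21 to 0.98, adjusted p = 0.128). No chromatin gene passed between Cx43 null and Cx32 null brain, against 0.084% of all transcripts (0.070% higher and 0.014% lower), or between Cx43 heterozygous and Cx32 null brain, against 1.23% (0.903% higher and 0.329% lower). At an unadjusted p under 0.05 the counts were 14, 10 and 8 of 82 for the pairs Cx43 null and Cx43 heterozygous, Cx43 null and Cx32 null, and Cx43 heterozygous and Cx32 null, 17.1%, 12.2% and 9.76% against 13.7%, 9.12% and 11.4% of all transcripts. The arrays did not overlap for 15, 8 and 19 genes in these pairs, 18.3%, 9.76% and 23.2% against 12.4%, 7.88% and 14.0% of all transcripts. For Smarcc2 the difference between Cx43 null and Cx32 null brain was -1.23 (95% interval -2.29 to -0.16) and that between Cx43 heterozygous and Cx32 null brain -0.95 (-2.01 to 0.12), intervals that leave room for large differences.

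Where a gene has several spots, these often disagreed. Of 49 genes with at least 2 measured spots, all spots had the same sign in 19, 20 and 17 genes in Cx43 null, Cx43 heterozygous and Cx32 null brain. The median gap between the highest and the lowest spot of a gene was 0.75, 1.09 and 1.00. Among the genes that passed, all spots pointed the same way in 4 of 4, 11 of 16 and 11 of 17. Passing genes read by 1 measured spot were Arid5b, Cbx1, Chd5, Ezh2, Hdac3, Ing3, Kat2a, Kat6b, Kat7, Kdm1a, Kdm5c, Kmt2b, Setd1b and Smarcc2. For these no second clone could be compared. Setd3, Chd7, Kdm4a, Smarcal1 and Smarcb1 had spots of the same sign in each line. For Chd3 in Cx32 null brain 1 spot gave 2.23 and the other two 0.07 and -0.24. For Chd8 in Cx43 heterozygous brain 2 spots gave -1.05 and -1.37 and the third 0.57. Dnmt3a spots gave 1.19, 1.40 and -0.11 in Cx32 null brain, and Smarca4 spots in Cx43 heterozygous brain ran from 0.01 to 1.70. Each spot of a gene is a different cDNA clone, and which part of the transcript it holds is not given in the sources used here.

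**Figure D4:**
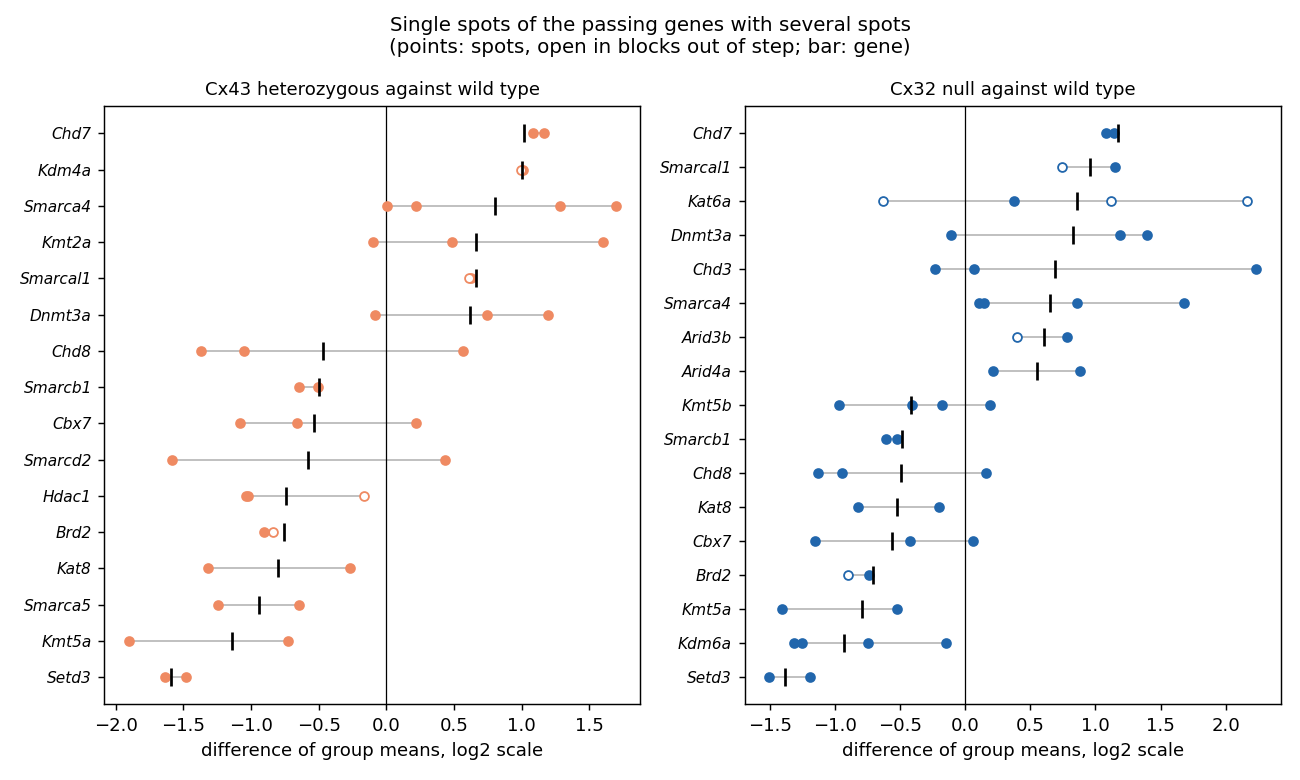
Difference of group means on the log2 scale (x axis) for each spot (points) of the genes that passed and have at least 2 measured spots (rows), for Cx43 heterozygous (left) and Cx32 null brain (right) against wild type; black bars mark the value of the gene, open points spots in blocks out of step. Spots of Setd3, Chd7 and Smarcal1 lie on one side of 0, while Chd3, Chd8, Dnmt3a, Cbx7 and Kat6a have spots on both sides in Cx32 null brain.

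The number of genes that pass moved when single arrays were left out. Such a fit also requires all 3 remaining values of the group, so spots and genes drop out with the array. It tested 12374 to 14111 transcripts, against 14292 with all arrays, and the 2 effects are not told apart. Of the genes of Cx43 null brain, 8 were lower when its replicate 1 was left out and 8 when wild-type replicate 4 was, against 3 with all arrays, and 1 was lower without Cx43 null replicates 2, 3 or 4 or wild-type replicate 2. Higher genes in this line numbered 0 without Cx43 null replicate 3 or wild-type replicates 1 or 2, and 3 to 5 without Cx43 null replicate 1 or wild-type replicates 3 or 4, against 1 with all arrays. In Cx43 heterozygous brain 8 to 16 genes were higher and 9 to 18 lower, and the lower ones numbered 9 to 11 without Cx43 heterozygous replicates 2, 3 or 4 or wild-type replicate 2, against 17 with all arrays. In Cx32 null brain 10 to 16 were higher and 6 to 14 lower, with 6 lower without Cx32 null replicates 1, 3 or 4. Calls that passed in all fits that leave out 1 array numbered 0 of 4 for Cx43 null, 13 of 28 for Cx43 heterozygous and 11 of 26 for Cx32 null brain. Hdac3 and Ing3 count among these on 5 such fits each. Calls lost without wild-type replicate 1 numbered 2, 8 and 9 in the same order of lines. Without the outlying wild-type replicate 1 the counts were 0 higher and 4 lower, 10 and 14, and 11 and 9. The calls over all transcripts moved in the same fits. In Cx43 null brain 1034 of 14111 were higher and 1434 lower without its replicate 1. Without its replicate 3 these were 23 and 66 of 13287, and without wild-type replicate 4 they were 1478 and 1479 of 13450. With all arrays they were 624 and 919 of 14292.

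**Figure D5:**
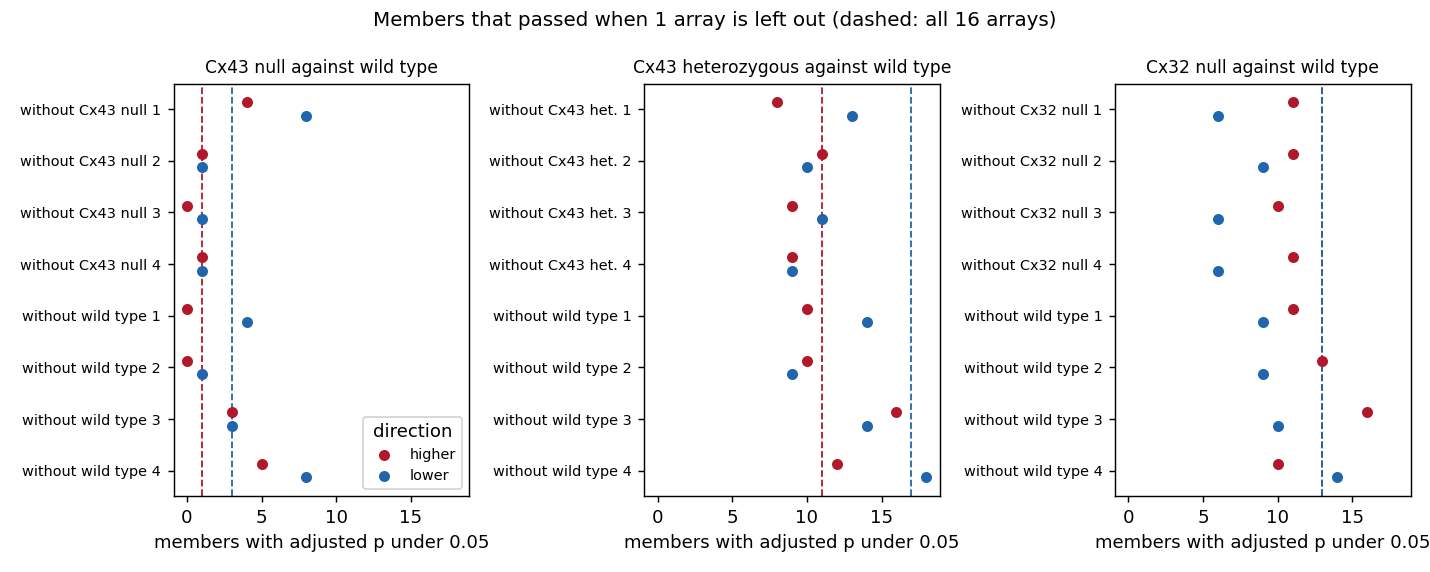
Number of chromatin genes with an adjusted p under 0.05 (x axis) when the array named on the y axis is left out, higher (red) and lower (blue) genes, for Cx43 null, Cx43 heterozygous and Cx32 null brain against wild type; dashed lines give the counts with all 16 arrays. Counts for Cx43 null brain run from 0 to 5 higher and 1 to 8 lower, and those of the other 2 lines stay at 6 or more. Each such fit requires all 3 remaining values of the group, so it also tests fewer transcripts.

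Relative to the pool of adult tissues, most chromatin genes were on the brain side. The median log2 ratio of the 82 genes was 0.39 in Cx43 null, 0.34 in Cx43 heterozygous and 0.40 in Cx32 null brain, against 0.37 in wild type, while that of all transcripts was -0.01, -0.04 and -0.03, against -0.02. Ratios above 1 were found for 16, 16 and 17 genes in the 3 lines and 21 in wild type, 19.5%, 19.5% and 20.7% against 25.6%. Over all transcripts the shares were 11.3%, 11.4% and 11.02% against 15.6%. In all, 24 genes had a ratio above 0 on every array with a value and 8 were below 0 on every array. Chd3, Kdm2b, Kmt2c and Kmt2e had ratios above 1 on every array, with averages of 2.25, 1.77, 1.41 and 1.52 in Cx43 null brain against 1.90, 1.89, 1.47 and 1.40 in wild type. Those below 0 throughout were Arid3b, Cbx7, Chd9, Ezh2, Kat2b, Kdm7a, Setdb2 and Smarcd2. Ezh2, for example, averaged -0.64 ± 0.38 in Cx43 null, -1.37 ± 0.17 in Cx43 heterozygous and -0.88 ± 0.30 in Cx32 null brain, against -0.80 ± 0.20 in wild type (SD, n = 4 each).

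Partner genes that act in the same complexes fall outside the symbol rule, and 106 were measured. Of these 2 were higher and 7 lower in Cx43 null, 9 and 21 in Cx43 heterozygous and 15 and 12 in Cx32 null brain. These are 8.49%, 28.3% and 25.5%, against 10.8%, 31.0% and 27.3% of all transcripts, so that the counts say nothing particular about the partners. In the NuRD, Sin3 and CoREST corepressors, to which Hdac1, Kdm1a and the Chd3 to Chd5 motors belong, 16 partners were measured. Gatad2a, a NuRD scaffold, fell in all 3 lines, 2.40-fold in Cx43 null (-1.26 ± 0.24, adjusted p = 0.00974), 3.12-fold in Cx43 heterozygous (-1.64 ± 0.24, adjusted p = 0.000244) and, in Cx32 null brain, 2.44-fold (-1.29 ± 0.24, adjusted p = 0.00198, limma). Mta2, another NuRD subunit, fell by 0.86, 0.78 and 0.64, and Rcor2, a CoREST protein, rose by 1.03 in Cx43 heterozygous and 0.74 in Cx32 null brain. Mbd2, which binds methylated DNA, rose by 0.70 in Cx32 null brain.

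Of 16 Polycomb partners, 0 were higher and 1 lower in Cx43 null, 0 and 4 in Cx43 heterozygous and 1 and 4 in Cx32 null brain. The shares were 6.25%, 25.0% and 31.25%, against 10.8%, 31.0% and 27.3% of all transcripts. Suz12, the PRC2 subunit that stabilises EZH2, fell 2.60-fold in Cx43 heterozygous (-1.38 ± 0.28, n = 4 and 3, adjusted p = 0.00261) and, in Cx32 null brain, 2.35-fold (-1.23 ± 0.28, n = 4 and 3, adjusted p = 0.0062, limma). Asxl1 fell by 0.76 and 0.64 in these lines, Phc1 by 0.73 in Cx43 null brain, and Pcgf2 rose by 0.83 in Cx32 null brain. Among 11 further SWI/SNF subunits, Actl6a, the progenitor form of the actin-related subunit, fell by 0.96, 1.20 and 1.08 and Bcl7b by 0.85, 0.87 and 0.77 in Cx43 null, Cx43 heterozygous and Cx32 null brain. Bcl11b, a zinc finger protein of deep-layer cortical neurons that joins the complex, rose by 0.67, 0.57 and 1.03 in the same order, and Bcl7a rose by 0.65 in Cx32 null brain. The counts for this list were 1 higher and 2 lower in Cx43 null, 1 and 2 in Cx43 heterozygous and 2 and 2 in Cx32 null brain, or 27.3%, 27.3% and 36.4%.

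Acetylation partners were 0 higher and 0 lower of 17 in Cx43 null, 4 and 2 in Cx43 heterozygous and 4 and 0 in Cx32 null brain. The shares were 0%, 35.3% and 23.5%, against 10.8%, 31.0% and 27.3% of all transcripts. Trrap, the scaffold of NuA4 and SAGA, rose 2.77-fold in Cx43 heterozygous brain (1.47 ± 0.36, adjusted p = 0.00669), Ep300, the acetyltransferase p300, rose 1.89-fold in Cx32 null brain (0.92 ± 0.16, adjusted p = 0.00154, limma), and Jade3 rose by 0.87 in Cx43 heterozygous brain, where Msl1 and Msl3, partners of Kat8, fell by 0.41 and 0.71. Methylation partners were 1 higher and 1 lower of 24 in Cx43 null, 2 and 6 in Cx43 heterozygous and 4 and 1 in Cx32 null brain, or 8.33%, 33.3% and 20.8%. Dot1l, a histone H3 methyltransferase without a SET domain, fell by 0.93, 0.90 and 0.58 and Nsd1 rose by 0.74, 0.77 and 0.91 in the 3 lines in that order. Men1, which tethers Kmt2a and Kmt2b, fell by 1.12 and Prmt6 rose by 0.74 in Cx43 heterozygous brain, and Phf2 rose by 1.44 in Cx32 null brain. In the ISWI, INO80 and SRCAP list the counts over 16 genes were 0 and 1, 1 and 3, and 1 and 2, or 6.25%, 25.0% and 18.75%. Baz1a, a partner of Smarca5, fell by 0.71, 0.90 and 1.00, Baz2b rose by 0.57 in Cx43 heterozygous and 0.58 in Cx32 null brain, where Baz2a fell by 0.57, and Ruvbl2 fell by 1.02 in Cx43 heterozygous brain. Of 6 DNA methylation partners 0 and 0, 0 and 2, and 1 and 1 passed, or 0%, 33.3% and 33.3%: Tdg fell by 0.57 in Cx43 heterozygous and 0.72 in Cx32 null brain, Uhrf2 fell by 0.77 in Cx43 heterozygous brain, and Tet1 rose by 0.74 in Cx32 null brain.

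Cell type markers give the values that stand beside these changes, with 10.8%, 31.0% and 27.3% of all transcripts passing in Cx43 null, Cx43 heterozygous and Cx32 null brain. Proliferating progenitors, in which many chromatin genes are abundant, had 18 measured markers, of which 0 were higher and 1 lower in Cx43 null, 0 and 4 in Cx43 heterozygous and 1 and 2 in Cx32 null brain, and their median ratio per array ran from -0.77 to -0.04, from -0.50 to -0.23 and from -0.24 to -0.12, against -0.35 to 0.30 in wild type. Astrocyte and radial glia markers had 7 measured genes with 0 and 1, 1 and 3, and 0 and 2 passing, and their median per array ran from 0.21 to 0.96, from 0.03 to 0.40 and from -0.13 to 0.44, against 0.48 to 1.51. Neuron markers, 10 measured, were 0 and 0, 1 and 2, and 0 and 2, with medians of 1.94 to 2.17, 1.61 to 2.15 and 1.60 to 1.87, against 1.17 to 2.48. Red blood cell markers, 3 measured, were 0 and 0, 0 and 2, and 0 and 2, with medians of -2.76 to -1.14, -2.29 to -1.67 and -1.93 to -1.54, against -1.55 to -0.39. Microglia, 7 measured, were 0 and 2, 3 and 2, and 1 and 2. Meninges and choroid plexus, 7 measured, were 0 and 2, 1 and 2, and 0 and 2, endothelium and pericytes, 7 measured, 1 and 0, 1 and 0, and 0 and 0, and oligodendrocytes, 2 measured, 0 and 0, 0 and 1, and 0 and 1. Of 8 reference tissue genes 0 and 0, 1 and 2, and 0 and 1 passed, and of 2 sex-linked genes none. Progenitor markers passed in 5.56%, 22.2% and 16.7%, below the share of all transcripts in each line. Neuron markers passed in 0, 3 and 2 of 10 cases, in Cx43 heterozygous brain close to that share. Several shorter lists lay above it in that line: microglia 71.4%, red blood cells 66.7%, astrocytes and radial glia 57.1%, meninges and choroid plexus 42.9%. In Cx32 null brain these lists gave 42.9%, 66.7%, 28.6% and 28.6%. Endothelium and pericytes and sex-linked genes lay below it in both lines, and reference tissue genes in Cx32 null brain. With 2 to 8 genes a list, these shares are imprecise. The part of these cells in the changes of the chromatin genes was not tested.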

How the data were processed

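The deposited values are 1 log ratio per spot and array, whose log base, numerator and normalization are not given in the sources used here; the authors' deposited log2 ratios, as they are read here, compare brain with a common pool. Spots were named through the platform annotation and gene IDs, 18511 of 28704 having a single symbol. The ratios of each array were centred on the median of all spots, spots of a gene with at least 3 of 4 values in each group were averaged, and 14292 transcripts were tested with limma 3.58.1 in R 4.3.3 (lmFit and eBayes, 4 group means over 16 arrays, Benjamini-Hochberg adjustment). Each array gave 21010 to 24819 spots with a value, and the number of arrays limits the precision. Wild-type replicate 3 carries another replicate number in its channel label, and its title was followed. The replicate numbers are not said to pair the arrays, and the reported fit does not use them. Deviations of same-numbered arrays correlated at -0.26 to 0.23. Differently numbered arrays were not compared in this way, so the values do not settle whether the numbers pair arrays. On simulated data the fit recovered 58, 59 and 53 of 100 changes of 1 log2 unit and 94, 98 and 96 of 100 changes of 2 units for Cx43 null, Cx43 heterozygous and Cx32 null brain against wild type, over 14292 simulated transcripts, with 4.40%, 4.85% and 6.88% false calls. The simulated noise was independent, with the same spread in all groups, and no other transcripts changed. It held no outlying array and no block out of step, so these rates do not give the error of the calls reported here.

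Named were, of the chromatin genes that passed, the 8 largest rises and falls per line, up to 2 per role and direction, the 5 largest differences between lines in each direction, all measured Smarc genes, and of each partner list up to 2 per direction. Arid1a, Arid4a, Cbx6, Ezh2, Kat2a, Kmt5b, Kmt5c, Xist and the genes above or below a ratio on every array were chosen after their values were seen. The members, lists and tests were chosen with earlier results of these data known. Alternatives were other scalings, filters on missing values, single spots, blocks of spots out of step, fits of 2 groups, a replicate block, a trended prior, array weights and leaving out each array.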

Additional observations from a re-analysis of the deposited data

Results flagged for a closer look

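In groups of 4 arrays, 166 sets of values of the chromatin genes named or passing were searched for an array far from the others, with a gap to the next array, as a share of the range, over Dixon's 95% critical value, and 11 were found, while chance alone gives about 1 in 20. In Cx43 null brain these were Arid3b in replicate 4 (-0.89), Arid4a in replicate 3 (-0.0334), Chd8 in replicate 1 (-0.28), Kat8 in replicate 1 (-0.40) and Kdm6a in replicate 3 (1.01). In Cx32 null brain they were Chd1 in replicate 2 (0.62) and Kat8 in replicate 1 (-0.85). Wild-type arrays were flagged for Brd2 in replicate 1 (0.56), Ing3 in replicate 3 (0.27), and Arid5b and Kat6a in replicate 4 (-0.26 and 0.40). The fall of Brd2 in Cx43 heterozygous brain, where the outlying wild-type value lies among the mutant ones, passed in 7 of 8 fits that leave out 1 array, and its fall in Cx32 null brain in 5 of 8. The effects of the lines on Kat6b differed: its change in Cx43 null brain was lower than that in Cx43 heterozygous brain by -1.19 ± 0.28 on the log2 scale (95% interval -1.78 to -0.59, adjusted p = 0.0472, limma), with no overlap of the arrays.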

How the results depend on the processing

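Counts are of chromatin genes with an adjusted p under 0.05 in limma, higher then lower, in Cx43 null, Cx43 heterozygous and Cx32 null brain against wild type, where the reported counts are 1 and 3, 11 and 17, and 13 and 13, and 1 between Cx43 null and Cx43 heterozygous brain. Values as deposited gave 0 higher in Cx43 null, 7 lower in Cx43 heterozygous and 6 lower in Cx32 null brain, and 2 between Cx43 null and Cx43 heterozygous brain. Quantile normalization gave 3 higher in Cx43 null and 11 lower in Cx43 heterozygous brain and 2 between these lines, and cyclic loess gave 2 higher in Cx43 null brain. Requiring all 16 values gave 1 lower in Cx43 null and 7 lower in Cx32 null brain and 0 between the Cx43 lines, and requiring 2 values per group gave 3 between the Cx43 lines and 1 between Cx43 heterozygous and Cx32 null brain. Without the blocks out of step 0 were higher in Cx43 null brain and 2 differed between the Cx43 lines. Single spots gave 6 and 11, 28 and 43, and 30 and 31, and 2 between the Cx43 lines. Fits of only the 2 groups compared gave 0 and 0 in Cx43 null, 11 lower in Cx43 heterozygous and 6 and 6 in Cx32 null brain, and 0 between the Cx43 lines. Over all 14292 transcripts such fits gave 0 and 0, 1222 and 1813, and 976 and 1280. The reported fit gave 624 and 919, 1928 and 2497, and 1871 and 2037. Array weights gave 6 and 12 in Cx43 null brain, 14 between the Cx43 lines, 3 between Cx43 null and Cx32 null and 2 between Cx43 heterozygous and Cx32 null brain. The calls over all 14292 transcripts rose as well, to 1948 and 1993 in Cx43 null brain. Between the Cx43 lines they rose to 1183 and 664, from 110 and 98 in the reported fit. With the replicate number as a block the counts were 2 and 4, 12 and 17, and 13 and 12, with 0 between any lines, and the numbers are not said to pair the arrays.

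Leaving out each array in turn gave 0 to 5 higher and 1 to 8 lower in Cx43 null, 8 to 16 and 9 to 18 in Cx43 heterozygous and 10 to 16 and 6 to 14 in Cx32 null brain, 0 to 2 between the Cx43 lines and 0 to 0 for the other 2 pairs. The median ratio to the pool was 0.35 to 0.41 in Cx43 null, 0.32 to 0.42 in Cx43 heterozygous, 0.35 to 0.45 in Cx32 null and 0.29 to 0.40 in wild-type brain in these fits, and as deposited 0.54 in Cx43 heterozygous and 0.50 in Cx32 null brain. Of 1413 values of named or passing genes under an alternative, 1130 kept their direction and side of the threshold, 265 fell short of it and 12 turned direction. Those that turned were single spots of Cbx7 (0.22 in Cx43 heterozygous and 0.058 in Cx32 null brain), Chd3 (-0.24 in Cx32 null), Chd8 (0.57 and 0.16), Dnmt3a (-0.083 and -0.11), Kat6a (-0.64 in Cx32 null), Kmt2a (-0.10 in Cx43 heterozygous), Kmt5b (0.19 in Cx32 null) and Smarcd2 (0.43 in Cx43 heterozygous, also when all 16 values are required, since this leaves that spot). Averaging after each spot was set to a mean of 0, chosen after seeing the data, gave 1 and 3, 11 and 18, and 13 and 11, without the fall of Kat8 in Cx32 null brain (adjusted p = 0.0671). Apart from that by construction of the single spots and smaller fits, the cause was not tested.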
